A study of Homo sapiens with 2 samples.

Results

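The miR-23, miR-27 and miR-24 miRNAs were examined in 2 small RNA libraries of MDA-MB-231-IV2-1 cells. All names with the stem miR-23a, miR-23b, miR-24, miR-24-1, miR-24-2, miR-27a or miR-27b were taken from the tables, with either arm, which gave 11 mature miRNAs of the 425 listed in either library. The group was chosen by family name, but it was chosen on the measured values as well, since the higher value of miR-27a-5p after the knockdown was already known, so every difference below describes these libraries and no test was run on it. All 11 were listed in both libraries.

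MDA-MB-231 is a human triple-negative breast cancer line, and IV2-1 is a subline of it isolated in mice for its high metastatic ability. The characteristics field of the labels names the parental line and the titles name the IV2 subline. The N.C library, the control, was made from cells given the scrambled siRNA, and the siLOC550643 library from cells given a pool of 2 siRNAs against the long non-coding RNA LOC550643. RNA was extracted 48 h after transfection in both cases. Each condition has 1 library, so no difference has a replicate check, and culture, library preparation and treatment cannot be told apart. The level of LOC550643 itself was not analysed here. Members of the epithelial miR-200 and miR-141 group, known to be low in this mesenchymal-like line, did not exceed 5.29 RPM in the N.C library and 7.12 RPM in the siLOC550643 library.

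Values are RPM, the reads of a miRNA scaled to the same total of assigned miRNA reads in each library. The value of 1 read was 5.29 RPM in the N.C library (189034 reads) and 2.03 RPM in the siLOC550643 library (491541 reads). Ranges in parentheses are 95% counting intervals (exact, by Clopper-Pearson), which hold no other error, as PCR copies are not independent molecules. Values at or under 3 reads, 15.9 RPM and 6.1 RPM, were taken as being at the floor. In a bulk library, fewer cells holding a miRNA and less of it per cell cannot be told apart.

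The family is made by a pair of gene clusters, each with a miR-23, a miR-27 and a miR-24 hairpin in the same order. A Dicer cut frees a duplex from each hairpin, with a 5p strand from the 5′ side and a 3p strand from the 3′ side. Usually 1 strand, the guide, stays in Argonaute and pairs with target mRNAs through its seed (bases 2 to 8), while the passenger strand is degraded. For all 3 families the 3p strand is the usual guide. In cancer cells miR-27a-3p is known for repressing ZBTB10 and FOXO1, and miR-24-3p for repressing cell cycle and apoptosis genes.

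The mature sequences below are shown because the paralogs are close to identical on the 3p side and differ on the 5p side. They are from RefSeq (GRCh38.p14), which held all 11, and the capitals mark the seed.
miR-27a-5p: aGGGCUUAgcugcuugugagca
miR-27b-5p: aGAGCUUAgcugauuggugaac
miR-27a-3p: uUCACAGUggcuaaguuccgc
miR-27b-3p: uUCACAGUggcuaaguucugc
miR-23a-3p: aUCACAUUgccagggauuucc
miR-23b-3p: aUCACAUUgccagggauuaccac
miR-24-3p: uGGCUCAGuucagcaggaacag
miR-24-2-5p: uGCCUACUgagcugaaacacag
miR-24-1-5p: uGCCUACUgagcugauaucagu

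Counted from the 5′ end, miR-27a-3p and miR-27b-3p differed by the single substitution C19U. Over their 21 shared positions miR-23a-3p and miR-23b-3p differed by U19A, and miR-23b-3p has 2 further bases at its 3′ end. On the 5p side miR-27a-5p and miR-27b-5p were the same at 14 of 22 positions and had different seeds, through the substitution G3A. The remaining pair, miR-23a-5p and miR-23b-5p, shared the seed GGGUUCC and were the same at 15 of 22 positions. Between miR-24-2-5p and miR-24-1-5p, 16 of 22 positions were the same. The 3p paralogs are therefore told apart near their 3′ end only, and the 5p paralogs by at least 6 bases. How reads that fit both 3p paralogs were divided is not given in the sources used here, so the split of miR-27a-3p from miR-27b-3p and of miR-23a-3p from miR-23b-3p is uncertain. Of the 11 members 6 start with U, among them miR-27a-3p, and 4 with A, among them miR-27a-5p, while 41.4% of the 350 listed miRNAs with a RefSeq sequence start with U. The mature miR-24-3p is the same RNA from both clusters and was not assigned to either.

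In GRCh38 the miR-23a cluster lies on the minus strand of chromosome 19, with MIR23A at chr19:13836587-13836659, MIR27A at chr19:13836440-13836517 and MIR24-2 at chr19:13836287-13836359. These 3 hairpins span 373 bases. Each overlaps an annotated exon of AC020916.1, where RefSeq places the host gene MIR23AHG. AC020916.1 is an antisense non-coding gene of GENCODE 29 on the same strand (13823880 to 13842928). The miR-23b cluster lies on the plus strand of chromosome 9, with MIR23B at chr9:95085208-95085304, MIR27B at chr9:95085445-95085541 and MIR24-1 at chr9:95086021-95086088. It spans 881 bases inside the protein-coding gene C9orf3 (94726701 to 95087218). There MIR23B and MIR27B are intronic, and MIR24-1 overlaps an annotated exon of C9orf3 and, on the minus strand, MIR3074. The miR-27 hairpins are shown for the position of their arms, which are in capitals.
MIR27A: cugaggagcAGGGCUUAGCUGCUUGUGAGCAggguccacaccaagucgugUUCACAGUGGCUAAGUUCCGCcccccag
MIR27B: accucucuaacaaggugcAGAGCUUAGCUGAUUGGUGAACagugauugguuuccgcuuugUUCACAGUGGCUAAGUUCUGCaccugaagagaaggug

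**Figure D1:**
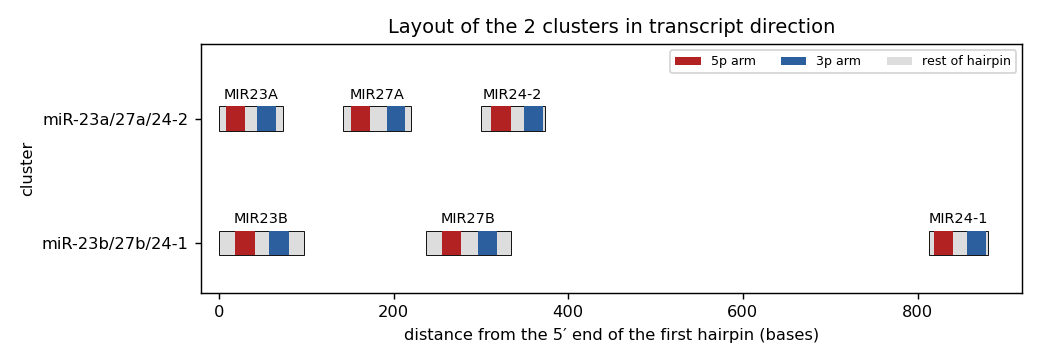
Layout of the clusters to scale, in transcript direction; the x axis is the distance in bases from the 5′ end of the first hairpin, with 5p arms in red, 3p arms in blue and the rest of each hairpin in grey. The miR-23a cluster spans 373 bases and the miR-23b cluster 881 bases.

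To describe the level of the family, the RPM of its 11 members were compared within each library. The strongest member was miR-27b-3p, the 10th miRNA of the N.C library and the 12th of the siLOC550643 library. It held 72.2% of the family RPM in the N.C library and 54.9% in the siLOC550643 library. Second in the siLOC550643 library was miR-27a-5p, which went from 5.6% to 21.7% of the family RPM. All 11 together made up 2.29% of the RPM in N.C and 1.65% in siLOC550643.

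In the N.C library, miR-27b-3p was at 16505 RPM (15935 to 17089). The next 4, miR-23b-3p at 1492 RPM, miR-24-3p at 1312 RPM, miR-27a-5p at 1280.2 RPM and miR-23a-3p at 1206 RPM, had intervals that overlapped from each to the next. They were followed by miR-27a-3p at 794 RPM (672 to 931), which lay below all of these. In the siLOC550643 library the order was miR-27b-3p (9039 RPM), miR-27a-5p (3568 RPM), miR-24-3p (1141 RPM), miR-23b-3p (1069.95 RPM), miR-23a-3p (702 RPM) and miR-27a-3p (670.25 RPM). The intervals of miR-24-3p and miR-23b-3p overlapped there, as did those of miR-23a-3p and miR-27a-3p. In both libraries the other 5 members, all 5p strands, were at most at 138 RPM.

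**Figure D2:**
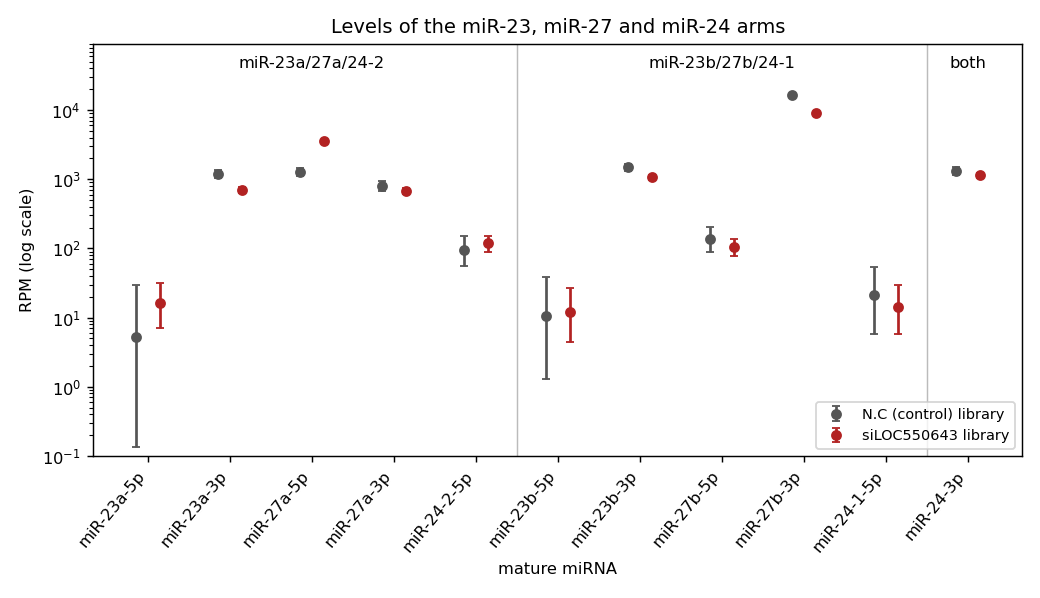
RPM of each member on a log scale in the N.C (grey) and siLOC550643 (red) libraries, with 95% intervals of the reads as bars, grouped by cluster. The interval of miR-27a-5p is higher in the siLOC550643 library (3404 to 3739) than in the N.C library (1124 to 1452), and that of miR-27b-3p is lower (8778 to 9309 against 15935 to 17089).

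To learn how the members differed between the libraries, siLOC550643 was divided by N.C on a log2(RPM + 1) scale, so that differences of low miRNAs are understated. By this measure 2 of the 11 were more than 2-fold higher, miR-27a-5p and miR-23a-5p, and none was more than 2-fold lower. Of all 425 miRNAs, 17.9% passed 2-fold in the higher direction and 27.3% in the lower one. Among the 124 averaging 100 RPM or more the shares were 2.42% and 5.65%, and 1 of the 8 members at this level, miR-27a-5p, was more than 2-fold higher. No reading about the family is drawn from these counts, since miR-27a-5p was picked for its value.

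The usual passenger strand of miR-27a, miR-27a-5p (hsa-miR-27a-5p), was at 1280.2 RPM in the N.C library (242 reads, 1124 to 1452 RPM) and at 3568 RPM in the siLOC550643 library (1754 reads, 3404 to 3739 RPM). This 2.79-fold higher value is a log2 fold change of 1.48 (1.28 to 1.68). There was no overlap between its intervals. Its rank among the listed miRNAs went from 45 to 20. Among the 51 miRNAs averaging 1000 RPM or more it had the highest log2 fold change, and its gain of 2288 RPM was the 4th largest of all.

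The usual guide strand of the same hairpin, miR-27a-3p (hsa-miR-27a-3p), was at 794 RPM in the N.C library (150 reads) and at 670.25 RPM in the siLOC550643 library (329.5 reads, taken as 330 for intervals). The log2 fold change was -0.24 (-0.52 to 0.05). This interval includes 0, so the difference was within the counting error at this depth. Its siLOC550643 value and that of miR-27b-3p are not whole numbers of reads, while the values of miR-27a-5p are.

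The other usual guide strands were lower in the siLOC550643 library. The most abundant, miR-27b-3p, went from 16505 RPM (3120 reads) to 9039 RPM (4444 reads), a log2 fold change of -0.87 (-0.93 to -0.80). The difference of -7467 RPM was the 2nd largest loss of all listed miRNAs. Among the 51 miRNAs averaging 1000 RPM or more, miR-27b-3p had the lowest log2 fold change. With median-of-ratios scaling, which raises all log2 fold changes by up to 0.20, it was -0.67.

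For miR-23a-3p the values were 1206 RPM (228 reads, 1055 to 1373 RPM) and 702 RPM (345 reads, 630 to 780 RPM). On the log2 scale the fold change of -0.78 (-1.03 to -0.53) was the 15th lowest among the 124 miRNAs averaging 100 RPM or more, where miR-27b-3p is the 12th lowest. The paralog miR-23b-3p was at 1492 RPM (282 reads) and 1069.95 RPM (526 reads), a log2 fold change of -0.48 (-0.69 to -0.27). For these 3 guide strands there was no overlap between the N.C and siLOC550643 intervals. The guide shared by both clusters, miR-24-3p, was at 1312 RPM (248 reads) and 1141 RPM (561 reads), with a log2 fold change of -0.20 (-0.42 to 0.02) that was within the counting error and came to -0.0019 with median-of-ratios scaling. In sum all 5 3p members were lower, against 57.1% of the 154 listed 3p miRNAs and 57.6% of all miRNAs. The intervals of miR-27a-3p and miR-24-3p include 0, and with median-of-ratios scaling miR-27a-3p was at -0.04. The median log2 fold change of the 5 was -0.48, beside -0.20 for all 425 and -0.09 for the 124 averaging 100 RPM or more.

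The remaining usual passenger strands had few reads. With 18 reads in the N.C library and 58 in the siLOC550643 library, miR-24-2-5p was at 95.2 RPM and 118 RPM (log2 fold change 0.31, -0.47 to 1.16). Its paralog miR-24-1-5p was at 21.2 RPM (4 reads) and 14.2 RPM (7 reads), a log2 fold change of -0.54 (-2.55 to 1.65). For miR-27b-5p there were 26 reads (138 RPM) and 51 reads (104 RPM), with -0.40 (-1.12 to 0.33). These intervals all include 0, so the differences were within the counting error.

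With 1 read in the N.C library and 8 in the siLOC550643 library, miR-23a-5p had 5.29 RPM and 16.3 RPM. Their ratio of 3.08 has a log2 interval of -1.28 to 7.09, and the 2-fold count for this strand therefore rests on a single control read. For miR-23b-5p there were 2 reads (10.6 RPM) and 6 reads (12.2 RPM), a ratio of 1.15 with a log2 interval of -2.28 to 3.55. These 2 were the members at the floor in the N.C library, and the other 9 exceeded 3 reads in both. Of the 6 5p members 4 were higher in the siLOC550643 library, and of the 168 listed 5p miRNAs 37.5% were.

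**Figure D3:**
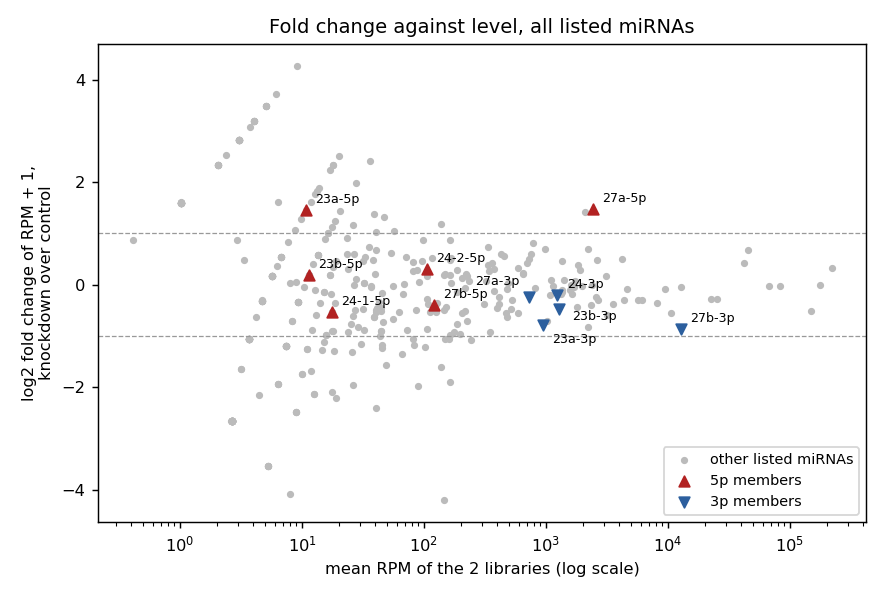
Log2 fold change of RPM + 1, siLOC550643 over N.C, against the mean RPM of the libraries on a log scale, for all 425 listed miRNAs (grey), 5p members (red) and 3p members (blue), with dashed lines at 2-fold. Among miRNAs above 1000 RPM, miR-27a-5p is the highest point (1.48) and miR-27b-3p the lowest (-0.87).

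To compare the strands of each hairpin, the 5p share of the reads of both arms was computed within each library, where it does not depend on the scaling between libraries. The miR-27a hairpin was the exception among the 4 hairpins with both arms assigned, as its 5p strand outnumbered the 3p strand in both libraries. This order in N.C depends on the uncertain split of 3p reads between miR-27a-3p (150 reads) and miR-27b-3p (3120 reads). The intervals of the miR-27a shares and ratios, here and below, leave that uncertainty out. In the N.C library the 5p strand made up 61.7% (56.7 to 66.6) of the miR-27a reads, 242 of 392, or 1.61 reads for each 3p read. In the siLOC550643 library it made up 84.2% (82.5 to 85.7), which is 5.32 reads for each 3p read. The 5p to 3p ratio was thus 3.3-fold higher in the siLOC550643 library, a log2 change of 1.72 (1.37 to 2.07). With the usual guide strand near its control level, the sum of both strands went from 2074 to 4238 RPM, a log2 fold change of 1.03.

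The paralogous hairpin miR-27b had the reverse strand order. Its 5p strand made up 0.826% (0.541 to 1.21) of the reads in the N.C library and 1.13% (0.846 to 1.49) in the siLOC550643 library, where the 3p strand was 87.1 times as frequent. The log2 change of its 5p to 3p ratio was 0.46 (-0.25 to 1.21). For miR-23a the 5p share was 0.437% (0.0111 to 2.41) and 2.27% (0.983 to 4.42). For miR-23b it was 0.704% (0.0854 to 2.52) and 1.13% (0.415 to 2.44). The intervals of the libraries overlapped for these 3 hairpins. The summed 5p strands of the miR-24 hairpins amounted to 0.0887 reads for each miR-24-3p read in the N.C library and 0.116 in the siLOC550643 library, a log2 change of 0.39 (-0.37 to 1.19).

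**Figure D4:**
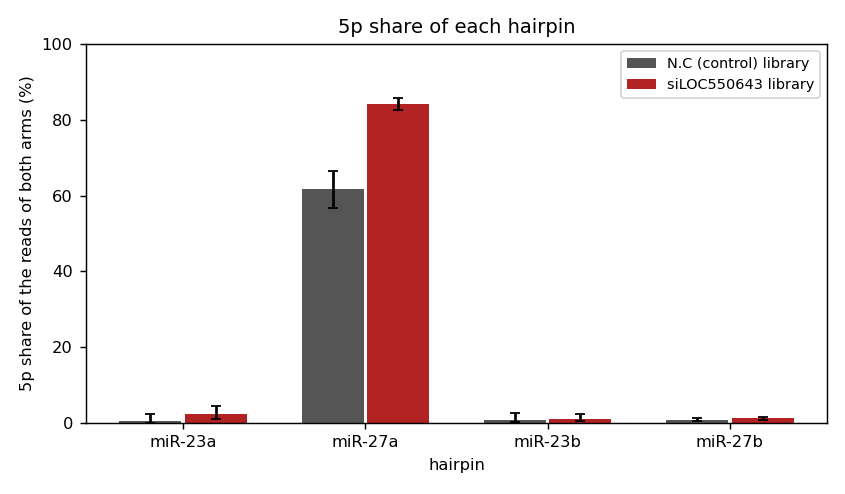
Share of the 5p strand among the reads of both strands of each hairpin, in percent, for the N.C (grey) and siLOC550643 (red) libraries, with 95% exact intervals as bars. The 5p share of miR-27a is 61.7% and 84.2%, and that of the other 3 hairpins is at most 2.27%.

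The change of the 5p to 3p ratio was set beside that of all other hairpins. Of 87 names with both strands listed, 29 had more than 3 reads on both strands in both libraries. Among these the ratio was higher in the siLOC550643 library for 48.3%, more than 2-fold higher for 13.8% and more than 2-fold lower for 10.3%, with a median log2 change of -0.04. The 4 hairpins with a more than 2-fold higher ratio were miR-532 (log2 change 1.75, interval -0.05 to 3.71), miR-27a (1.72), miR-330 (1.69, -0.31 to 3.82) and miR-574 (1.26, 0.35 to 2.15). In miR-532 and miR-330 the rarer strand had 5 reads in the library where it was lowest, against 150 in miR-27a. The 3 hairpins at the other end were miR-424 (-1.79, -3.54 to 0.02), miR-151a (-1.63, -2.93 to -0.42) and miR-132 (-1.12, -3.75 to 1.42).

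Counting intervals lay above 0 for 3 of the 29 hairpins, miR-27a, miR-574 and miR-221, and below 0 for 4. Only 5 hairpins had at least 100 reads on each strand in each library. Among these 5 the log2 change was 1.72 for miR-27a, 0.67 for miR-221, -0.10 for miR-30a, -0.34 for miR-423 and -0.56 for miR-99b. The lower bound of miR-27a, 1.37, is the highest among the 29 hairpins, and that of miR-221 follows with 0.45. Such bounds lie closer to the change where reads are many. By the change itself miR-532 ranked 1st of the 29 and miR-27a 2nd. Since miR-27a was chosen with its values known, its place in these orders only describes these libraries. In 15 of the 29 hairpins, miR-27a among them, the 5p strand was the more frequent one in both libraries, in 2 (miR-132 and miR-423) in N.C only, and in 2 (miR-199a and miR-330) in siLOC550643 only.

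**Figure D5:**
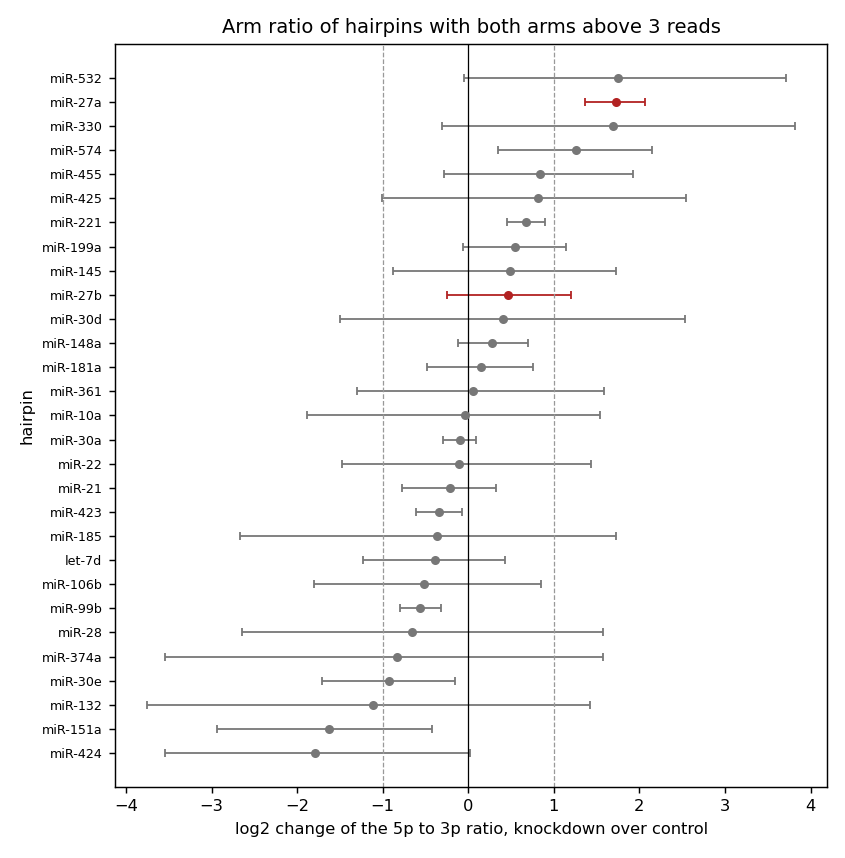
Log2 change of the 5p to 3p ratio, siLOC550643 over N.C, for the 29 hairpins with more than 3 reads on both strands in both libraries, with 95% counting intervals as bars; miR-27a and miR-27b are in red and dashed lines mark 2-fold. The interval of miR-27a (1.37 to 2.07) lies above the 2-fold line, and that of miR-27b includes 0.

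Next, the clusters were compared with each other. Summed over both strands of the miR-23 and miR-27 hairpins, the miR-23b cluster outnumbered the miR-23a cluster 5.52-fold (5.07 to 6.03) in the N.C library and 2.06-fold (1.96 to 2.17) in the siLOC550643 library. The miR-23a cluster was at 3285 and 4956 RPM, a log2 fold change of 0.59 (0.47 to 0.72), and the miR-23b cluster at 18145 and 10224 RPM, one of -0.83 (-0.89 to -0.76). The higher sum of the miR-23a cluster rests on miR-27a-5p, whose gain of 2288 RPM exceeds the rise of the sum. The 3p strands of miR-23a and miR-27a together were lower, going from 1999.7 to 1372 RPM. Counted on 3p strands only, the miR-23b cluster outnumbered the miR-23a cluster 9-fold (8.09 to 10.04) and 7.37-fold (6.79 to 7.99). The split of reads between the 3p paralogs is uncertain, and the intervals here and for the 3p ratios below leave that out.

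Between the miR-27 paralogs, miR-27b-3p was 20.8 times (17.7 to 24.7) as frequent as miR-27a-3p in the N.C library and 13.5 times (12.0 to 15.1) in the siLOC550643 library. On the 5p side the order was turned, with miR-27a-5p 9.31 times (6.20 to 14.5) as frequent as miR-27b-5p in the N.C library and 34.4 times (26.0 to 46.4) in the siLOC550643 library. The strands of miR-23 were closer, and miR-23b-3p was 1.24 times and 1.52 times as frequent as miR-23a-3p. For miR-24 the 5p strands differ between the loci. There were 18 reads of miR-24-2-5p for 4 of miR-24-1-5p in the N.C library, a ratio of 4.5 (1.48 to 18.3), and 58 for 7 in the siLOC550643 library, a ratio of 8.29 (3.78 to 21.5).

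Within the miR-23a cluster the strands did not move by a shared factor. The ratio of miR-27a-5p to its neighbour miR-23a-3p went from 1.06 (0.882 to 1.28) to 5.08 (4.53 to 5.72), a log2 change of 2.26 (1.94 to 2.58). Against miR-24-2-5p, the passenger strand encoded downstream of it, the log2 change was 1.17 (0.29 to 1.98). The ratio of the usual guide strands miR-27a-3p and miR-23a-3p went from 0.658 (0.532 to 0.812) to 0.955 (0.820 to 1.12). In the miR-23b cluster miR-27b-3p over miR-23b-3p went from 11.1 (9.79 to 12.5) to 8.45 (7.72 to 9.27).

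Grouped by seed, the sum of the UCACAGU miRNAs miR-27a-3p and miR-27b-3p was 17299 RPM in N.C and 9709 RPM in siLOC550643 (log2 fold change -0.83), while the sum of the UCACAUU miRNAs miR-23a-3p and miR-23b-3p was 2698 RPM and 1772 RPM (-0.61). The seed GGGCUUA belongs to miR-27a-5p alone among the RefSeq mature miRNAs, and GAGCUUA to miR-27b-5p alone. RefSeq gives the seed UCACAGU to miR-9985 and UCACAUU to miR-23c as well, and neither of these was listed. In the N.C library miR-27b-3p was 12.9 times (11.3 to 14.8) as frequent as miR-27a-5p, and in the siLOC550643 library 2.53 times (2.40 to 2.68).

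The study asked which miRNAs bind LOC550643, so its isoforms V1 (718 nt), V2 (581 nt) and V3 (476 nt) were searched for the reverse complement of each member's seed, on the transcript strand only. None of the 11 members had a 7-base match (bases 2 to 8) in any isoform, and in V1 5.91% of 2351 RefSeq mature sequences had one. The 6-base match CTGTGA, the complement of bases 2 to 7 of miR-27a-3p and miR-27b-3p, occurred once in each isoform, from base 605 to 610 in V1, from 468 to 473 in V2 and from 363 to 368 in V3. A 6-base match in V1 was found for 18.8% of the RefSeq sequences. For miR-27a-5p neither TAAGCCC nor AAGCCC was found. These matches are letters in these windows and say nothing about binding.

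Among the 116 other miRNAs averaging 100 RPM or more, those whose log2 fold change over the 2 libraries was nearest to that of miR-27a-5p were miR-34c-5p (1143 to 3057 RPM, log2 fold change 1.42), miR-381-3p (84.6 to 193 RPM, 1.18) and miR-3615 (116 to 214 RPM, 0.87). With 2 libraries this likeness is a distance between 2 numbers, 0.06 for miR-34c-5p, 0.30 for miR-381-3p and 0.61 for miR-3615.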

How the data were processed

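Small RNA was sequenced from 1 control and 1 knockdown sample. Per the methods the authors used a tool of their own, and each deposited table gives mature miRNAs in RPM. The submitters' processing notes name cutadapt, FastQC and hg38. The aligner, the miRNA release and filters are not given in the sources used here, and the labels and the methods name different sequencers.

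The value of 1 read was fitted to values up to 20 reads within 0.1 read of a whole number. Such values made up 92.9% (N.C, 253 values) and 91.5% (siLOC550643, 224 values), so no count test was run. Reads were rounded for intervals. RPM were rescaled to the same total with a pseudocount of 1 RPM, which the intervals do not use. Intervals of ratios come from exact conditional odds ratios or Clopper-Pearson shares (scipy 1.17.1, Python 3.11.15). The value of 1 read was tested on simulated whole counts. Intervals of log2 fold changes were tested there only for large differences of miRNAs averaging 100 RPM or more. The log2 fold changes scaled to the same total were not tested in this way. Nor were the smaller differences, the members below 100 RPM, or the intervals of shares and of strand ratios. Named miRNAs are all members, the 3 largest changes of the strand ratio in each direction, the 3 nearest patterns and shared seeds. miR-574, and the hairpins compared at 100 reads, for their intervals or for their more frequent strand, were named after their values were seen. Members and lists were chosen with earlier results of these data known. RefSeq sequences matched 350 of 425 names, and shared seeds were searched only there.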

Additional observations from a re-analysis of the deposited data

How the results depend on the processing

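No paired analysis was possible because N.C and siLOC550643 have 1 library each, and none could be left out. The number of members more than 2-fold higher, 2, was 1 with a pseudocount of 10 RPM, for means from 100 RPM up and for more than 3 reads in both libraries, each time without miR-23a-5p and its single N.C read. At a 1.5-fold threshold 2 members were lower, miR-23a-3p and miR-27b-3p, against 0. The other settings left both counts as they were. The ratio of the miR-23a to the miR-23b cluster, 0.181 in the N.C and 0.485 in the siLOC550643 library, was 0.111 and 0.136 on 3p strands only, which leaves out miR-27a-5p, and 0.125 in the N.C library on miR-27 alone. The number of hairpins with a more than 2-fold higher or lower 5p to 3p ratio, 4 and 3, was 15 and 13 among the 66 hairpins above 0 with a pseudocount of 1 RPM, 2 and 1 among the 15 above 10 reads, and 7 and 6 at 1.5-fold. The change of the miR-27a ratio was 1.71 to 1.72 under both pseudocounts, which are small beside the RPM of its strands. The value of 1 read cancels in its 5p shares, so this setting could not move them. With the smallest listed value taken as 1 read, only their intervals differed. They were 58.9 to 64.5% in N.C and 83.2 to 85.2% in siLOC550643. Of 44 log2 fold changes of members under 4 alternatives, none changed sign and 2 lay outside the counting interval, both of miR-27b-3p, at -0.67 and -0.68 when scaled by the median of ratios and by the 75th percentile.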
